A study of Homo sapiens with 44 samples.

Results

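The genes described here are 10 genes of MHC class II antigen presentation, HLA-DRA, HLA-DRB1, HLA-DPA1, HLA-DPB1, HLA-DQA1, HLA-DQB1, HLA-DMA, HLA-DMB, CD74 and CIITA. They were taken by symbol from a table of 40663 gene symbols, in which all 10 had a row. They were read in Ccd-18Co, a fibroblast line from normal human colon supplied by ATCC, profiled by bulk RNA-seq in 44 libraries. Of the 10 genes, 5 passed the filter on low counts (HLA-DRA, HLA-DPB1, HLA-DMA, HLA-DMB and CD74), as did 9513 symbols of the whole table.

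The libraries fell into 11 groups of 4 replicates. Cells were kept for 72 h in medium without serum and then left unstimulated or given 1 of 10 cytokines for 24 h. IFNγ, IFNα, TNF, IL-17A, IL-13, TGF-β1, OSM, IL-6 and IL-22 were used at 10 ng/ml, and IL-1β at 0.1 ng/ml according to the sample labels, although the study's text also gives a lower dose for it. All groups thus shared the same line and the serum-free medium, and the labels do not say whether replicates came from separate cultures, so the tests measure the spread between these libraries. As the line is a single culture-adapted source, no donor variation was measured.

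MHC class II molecules are pairs of an α and a β chain (DR, DP and DQ) that carry peptides from endosomes to the cell surface, where CD4+ T cells read them. CD74, the invariant chain, guides newly made pairs to the endosome and blocks their groove, and HLA-DM, made of the HLA-DMA and HLA-DMB chains, helps to exchange its remnant for a peptide. CIITA is the co-activator that class II promoters depend on, bound there through the RFX and NF-Y factors. Dendritic cells, macrophages and B cells express the pathway constitutively, whereas fibroblasts are known to acquire it on exposure to IFNγ.

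Class II promoters hold an X box, bound by RFX, and a Y box, a CCAAT sequence bound by NF-Y. The stretches just upstream of 4 members whose transcripts were seen after IFNγ are shown because CCAAT, on either strand, can be read in each of them and the string GATGATG in 3. Of the 4, HLA-DRB1 alone held the X box core searched for (GCAACNG). They are reference sequence (RefSeq, GRCh38.p14), written 5′ to 3′ on the strand of the gene and ending at or before the start of the transcript. Capitals mark CCAAT on either strand and GATGATG. HLA-DRB1 lies on chr6:32589849-32589968 (minus strand), HLA-DMB on chr6:32941029-32941148 (minus strand), HLA-DMA on chr6:32953109-32953217 (minus strand) and HLA-DPB1 on chr6:33075870-33075989 (plus strand). The HLA-DMA stretch lies before the RefSeq start used here, but inside the wider gene bounds given below, which are from GENCODE.
HLA-DRB1: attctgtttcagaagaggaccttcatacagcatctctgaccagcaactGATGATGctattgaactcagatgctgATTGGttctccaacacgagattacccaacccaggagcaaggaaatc
HLA-DMB: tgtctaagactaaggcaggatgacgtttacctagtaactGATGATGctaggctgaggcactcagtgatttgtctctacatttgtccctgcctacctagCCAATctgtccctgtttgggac
HLA-DMA: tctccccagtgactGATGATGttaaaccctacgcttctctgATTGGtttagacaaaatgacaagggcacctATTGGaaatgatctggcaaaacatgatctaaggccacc
HLA-DPB1: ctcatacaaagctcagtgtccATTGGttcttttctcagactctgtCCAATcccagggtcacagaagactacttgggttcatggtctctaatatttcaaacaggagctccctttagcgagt

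Upstream sequence was matched for 8 of the 10 members, HLA-DRA and CIITA being the others. These 8 had 9 promoters, since HLA-DPA1 had more than 1. In the 250 bases before the start, CCAAT or its complement ATTGG was present in 7 of the 9 member promoters and in 32.0% of 35116 promoters. The X box core GCAACNG (complement CNGTTGC) was present in 2 of the 9 member promoters and in 9.42% of all. These were the promoter of HLA-DRB1 and a single promoter of HLA-DPA1. GATGATG (complement CATCATC), a string chosen after the sequences were seen, was present in HLA-DRB1, HLA-DMB and HLA-DMA and in 2.37% of all. In HLA-DRB1 it began 72 bases before the start and overlapped by 1 base a GCAACNG match that began 78 bases before it. These matches describe letters in a window, and binding was not measured.

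Total counts per library ranged from 742173 to 2213424 (median 1480883), and a transcript with 3 counts stood at 1.38 to 3.82 CPM (its count scaled by the normalized library size). Fibroblast markers were abundant, with summed counts of 9 genes between 22758 and 76983 per library. Of 12 markers of leukocytes and professional antigen-presenting cells, CD3E, CD79A, MS4A1 and TYROBP were at 0 in all libraries, and PTPRC never exceeded 2 counts. Without CD68, the other 11 markers summed to between 0 and 4 counts per IFNγ library. CD68, a lysosomal protein, was called higher after IFNγ (log2 fold change 2.15, edgeR adjusted p = 0.0473) and after IFNα (4.23, adjusted p = 3.42e-05). Epithelial markers (4 genes) summed to between 0 and 30 counts per IFNγ library and between 10 and 25 per unstimulated library, and endothelial markers (4 genes) never exceeded 4. In bulk libraries, a change in the number of responding cells and a change in RNA per cell cannot be told apart.

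Transcripts of the invariant chain and of the DR and DM chains were near or at 0 without stimulation and rose after IFNγ. The 4 IFNγ libraries lay above all 40 other libraries for 7 of the 10 members (HLA-DRA, HLA-DRB1, HLA-DPA1, HLA-DPB1, HLA-DMA, HLA-DMB and CD74), against 0.255% of the 23518 symbols with a count. HLA-DQA1 and CIITA overlapped the other groups, and HLA-DQB1 had 0 counts in all 44 libraries, which at this depth allows up to 3.82 CPM in the shallowest. All 5 members that passed the filter were called higher after IFNγ (adjusted p under 0.05 and log2 fold change above 1.5), as were 2.4% of the 9513 genes tested. HLA-DRA, HLA-DMA, HLA-DMB and CD74 reached the filter through their IFNγ libraries, so this count is a description. DESeq2's Wald test called 3 of these 5, without HLA-DRA and HLA-DMB.

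**Figure D1:**
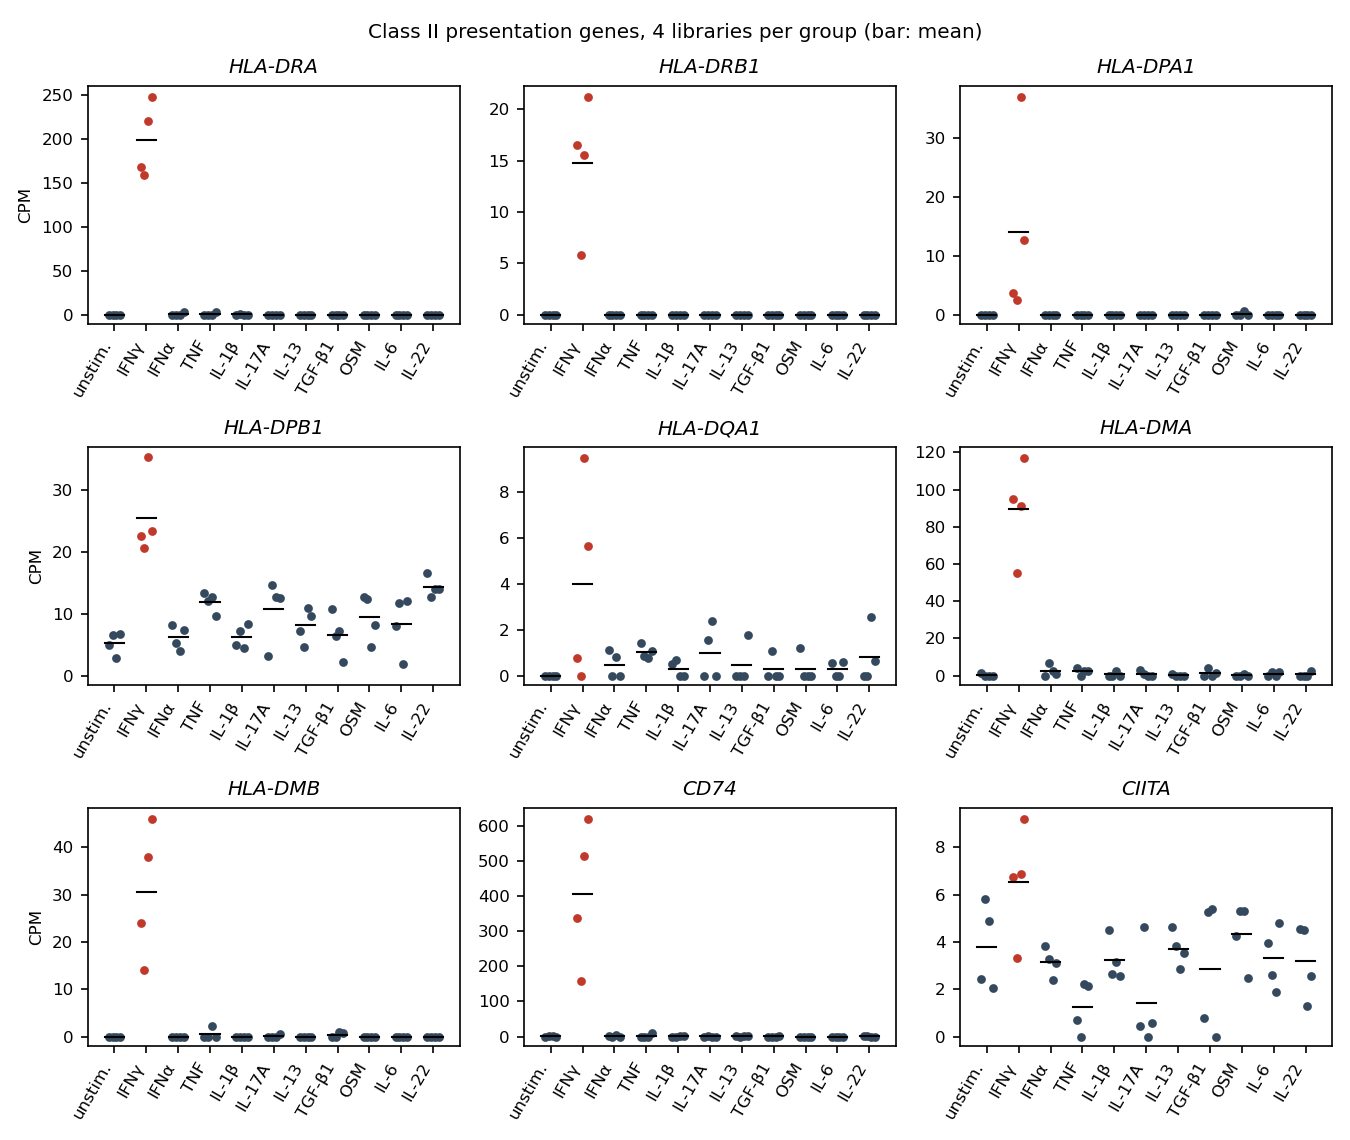
Each panel plots the CPM of 1 member (linear axis from 0) in the 4 libraries of each of 11 groups, with a bar at the group mean and IFNγ in red. HLA-DQB1, at 0 throughout, is left out. IFNγ libraries stand above all others in 7 panels, whereas HLA-DQA1 and CIITA overlap the other groups.

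CD74 (chromosome 5, 150401637 to 150412969, minus strand, GRCh38, 9 exons in the canonical transcript) was the most abundant member. It had 451, 190, 596 and 875 counts in IFNγ replicates 1 to 4, or 338, 157, 513 and 619 CPM, against 0, 1, 2 and 0 counts in the unstimulated libraries. The IFNγ libraries thus differed among themselves by a large factor, yet the lowest of them stood far above the highest library of any other group, a TNF library at 10.6 CPM. IFNγ libraries held 97.8% of all CD74 counts in the series. The ratio of the summed and scaled counts to unstimulated cells was 871 (95% interval 298 to 4230, counting error only, as are all intervals here), and the fitted log2 fold change was 9.50 (SE 0.83, edgeR adjusted p = 2.59e-11). With single libraries left out the latter ran from 9.01 to 10.48, highest without unstimulated replicate 3.

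The DR pair differed in depth of detection. HLA-DRA, the nearly monomorphic α chain (chromosome 6, 32439878 to 32445046, plus strand, 5 exons), had 225, 193, 257 and 350 counts after IFNγ (168, 159, 221 and 248 CPM) and 0 in each unstimulated library. Against a floor of 3 counts over the unstimulated group it was at least 423-fold higher. The fitted log2 fold change of 11.19 (SE 1.02, edgeR adjusted p = 1.97e-08) depends on the prior count, as the control group was at 0. Outside IFNγ, HLA-DRA was seen in 3 libraries only, with 4 counts in IFNα replicate 4, 6 in TNF replicate 4 and 1 in IL-1β replicate 2.

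HLA-DRB1, the polymorphic β chain (chromosome 6, 32577902 to 32589848, minus strand, 6 exons), had 22, 7, 18 and 30 counts after IFNγ (16.5, 5.78, 15.5 and 21.2 CPM). It had 0 counts in the other 40 libraries, so that 100% of its counts were in IFNγ libraries and it was at least 31.8-fold higher than unstimulated. It did not pass the filter. The exact 2-sided permutation test of 4 against 4 libraries gave p = 0.0286, the smallest such a design allows (adjusted p = 0.219 over 23 comparisons of the unfiltered members). With no filter on low counts, edgeR called it (log2 fold change 7.45, SE 1.65, adjusted p = 0.000387), where 1.15% of 23518 symbols were called higher. Reads of this gene may be shared with near-identical copies: HLA-DRB5 had 4 counts over the IFNγ libraries and 0 in the unstimulated ones.

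Both chains of HLA-DM, the peptide exchange factor, were higher after IFNγ. HLA-DMA (chromosome 6, 32948613 to 32969094, minus strand, 5 exons) had 127, 67, 106 and 165 counts (95.1, 55.3, 91.3 and 117 CPM) against 3, 0, 0 and 0 in unstimulated libraries. The ratio was 192 (95% interval 65.2 to 934) and the fitted log2 fold change 7.39 (SE 1.07, edgeR adjusted p = 1.43e-06). All 3 unstimulated counts were in replicate 1, and the fold change ran from 7.06 to 10.03 with single libraries left out, highest without that replicate. Unlike HLA-DRB1, HLA-DMA had scattered counts in other groups, with counts in 21 of the 44 libraries and 88.6% of its counts in IFNγ libraries. HLA-DMB (chromosome 6, 32934629 to 32941028, minus strand, 6 exons) had 32, 17, 44 and 65 counts (24.0, 14.0, 37.9 and 46.0 CPM) and 0 in all unstimulated libraries. It was at least 65.2-fold higher (fitted log2 fold change 8.49, SE 1.33, edgeR adjusted p = 8.93e-05). Both genes share exonic sequence with a same-strand readthrough gene (160 bases of HLA-DMA and 438 of HLA-DMB), whose reads could be counted with either. HLA-DMA also overlaps the opposite-strand gene BRD2 over 55 exonic bases. As the use of strand is not stated, reads in that overlap cannot be assigned.

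The DP chains did not follow a single pattern. HLA-DPA1, the α chain (chromosome 6, 33064569 to 33080775, minus strand, 6 exons), was absent without stimulation and had 5, 3, 43 and 18 counts after IFNγ (3.74, 2.48, 37.0 and 12.7 CPM). It was at least 28.5-fold higher, and its exact permutation p was 0.0286 (adjusted p = 0.219). With no filter, edgeR called it (log2 fold change 7.37, SE 1.67, adjusted p = 0.000587). Of its 69 IFNγ counts, 43 were in replicate 3, and the fold change ran from 6.26 to 7.72 with single libraries left out, lowest without that replicate. Apart from 1 count in an OSM library, it had no count outside IFNγ.

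HLA-DPB1, the β chain (chromosome 6, 33075990 to 33089696, plus strand, 6 exons), was the only member with counts in all 44 libraries. Unstimulated libraries had 10, 9, 4 and 10 counts (4.87, 6.52, 2.80 and 6.79 CPM) and IFNγ libraries 30, 25, 41 and 33 (22.5, 20.6, 35.3 and 23.4 CPM), without overlap, as for 6.07% of tested genes whose 4 IFNγ libraries all lay above the 4 unstimulated ones. The ratio was 4.84 (95% interval 3.28 to 7.33) and the fitted log2 fold change 2.26 (SE 0.47, edgeR adjusted p = 0.000695). Only 20.2% of its counts were in IFNγ libraries. The 2 DP genes lie on opposite strands and overlap by 96 exonic bases, and since the counting is not stated to use strand, reads in the overlap cannot be assigned.

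HLA-DQA1, the DQ α chain (chromosome 6, 32628179 to 32647062, plus strand, 5 exons), stayed close to the limit of detection. It had 1, 0, 11 and 8 counts after IFNγ (0.749, 0, 9.48 and 5.66 CPM) and 0 in each unstimulated library, an increase of at least 8.25-fold over the summed counts. The exact permutation p was 0.143. With no filter, edgeR called it (log2 fold change 5.58, SE 1.70, adjusted p = 0.029), but the call was lost on leaving out any of 6 of the 8 libraries in turn, with adjusted p between 0.0724 and 0.155. These were IFNγ replicates 3 and 4 and each unstimulated replicate. The fold change was lowest, at 4.75, without IFNγ replicate 3. HLA-DQB1 (chromosome 6, 32659467 to 32668383, minus strand), its β partner, was not detected, nor were HLA-DQA2, HLA-DQB2 and HLA-DOB in the IFNγ, IFNα and unstimulated libraries. HLA-DOA, a chain of the HLA-DM antagonist HLA-DO, had 9 counts over the IFNγ libraries and 1 over the unstimulated ones.

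CIITA, the co-activator (chromosome 16, 10866222 to 10943021, plus strand, 20 exons), was low in every group. It had 5, 8, 7 and 3 counts in unstimulated libraries (2.43, 5.80, 4.89 and 2.04 CPM) and 9, 4, 8 and 13 after IFNγ (6.74, 3.30, 6.89 and 9.20 CPM), and the groups overlapped. The means were 3.79 ± 1.84 and 6.53 ± 2.43 CPM (SD, n = 4; exact permutation p = 0.143, adjusted p = 0.548). The ratio of summed and scaled counts was 1.83 (95% interval 1.05 to 3.25), an interval that takes no account of the spread between libraries. With no filter on low counts, the fitted log2 fold change was 0.80 (SE 0.88, edgeR adjusted p = 0.807). A difference between the 2 groups was therefore not detectable at this depth and with this spread between libraries.

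The canonical CIITA transcript is 16061 bases long. The exons of all annotated CIITA transcripts together share 2378 bases with an unnamed same-strand gene, whose reads could be counted with CIITA. They overlap the exons of the opposite-strand gene DEXI over 2424 bases. DEXI had 10 counts over the unstimulated and 16 over the IFNγ libraries, so that counts assigned to CIITA may in part belong to it. The part of either gene in the CIITA values was not tested. Across the groups, mean CIITA levels ran from 1.27 CPM after TNF and 1.42 CPM after IL-17A to 4.33 CPM after OSM and 6.53 CPM after IFNγ. In TNF libraries the levels were 0.702, 0, 2.24 and 2.13 CPM, and in IL-17A libraries 0.461, 4.65, 0 and 0.571 CPM. Neither comparison with unstimulated cells passed the test (exact permutation p = 0.0857 and 0.171). The other 7 groups had means between 2.87 and 4.33 CPM, within the range of the unstimulated libraries.

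Levels of the members were compared with each other per kilobase of canonical transcript in the IFNγ libraries. CD74 had 246 ± 123 CPM per kb (SD, n = 4), HLA-DRA 161 ± 34.5, HLA-DMA 82.0 ± 23.4 and HLA-DMB 22.6 ± 10.6. CD74 and HLA-DRA overlapped between libraries (up to 374 against 129 to 201 CPM per kb, with the lowest CD74 library below the lowest of HLA-DRA), whereas HLA-DRA lay above HLA-DMA (at most 107) and HLA-DMA (at least 50.6) above HLA-DMB (at most 34.1) in all libraries. HLA-DRB1 followed at 12.1 ± 5.28 CPM per kb, HLA-DPA1 at 8.20 ± 9.39, HLA-DPB1 at 6.38 ± 1.67 and HLA-DQA1 at 2.52 ± 2.83, each overlapping its neighbour. CIITA, at 0.407 ± 0.152 CPM per kb, depended on the long canonical transcript used for its length. The α and β chains of DR thus stood far apart as counted transcript levels. Counts of polymorphic chains depend on the alleles in the reference transcriptome, and the part of this in the gap was not tested.

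**Figure D2:**
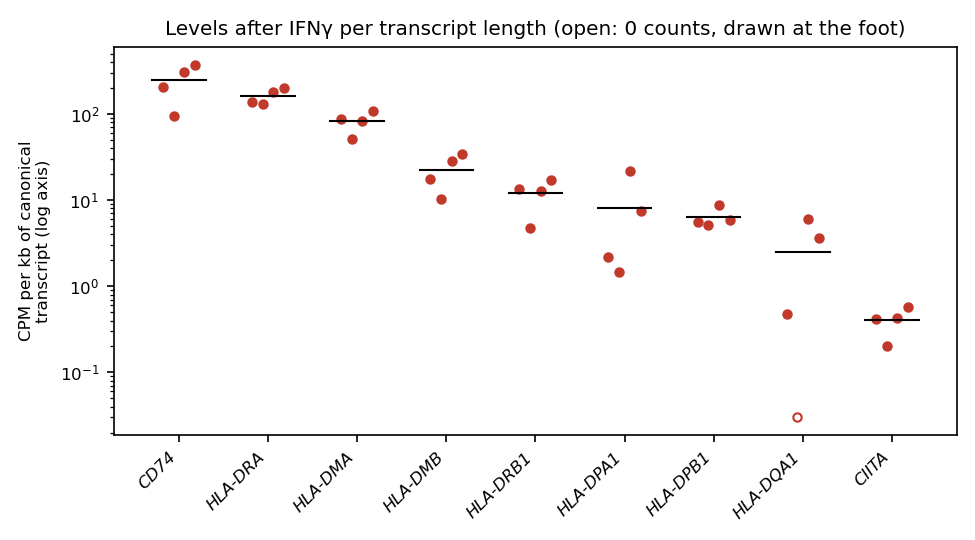
CPM per kilobase of canonical transcript (log axis) in the 4 IFNγ libraries for 9 members, with a bar at the mean and an open symbol for a library with 0 counts. CD74 and HLA-DRA head the order at means of 246 and 161 CPM per kb, and CIITA is last at 0.407.

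The 4 IFNγ libraries differed in their class II levels. Replicate 2 had the lowest CPM for all 9 members with a count, and also before normalization. In CPM it was the lowest IFNγ library for 44.4% of the 223 other genes called higher after IFNγ and for 34.5% of the 9513 genes tested. Before normalization these shares were 62.8% and 46.1%. CD74 in replicate 2 was 0.39 of the group mean and HLA-DMB 0.46 of it, whereas HLA-DRA was 0.80 of it. Other genes of the interferon response differed in how far these libraries lay apart. IRF1, a transcription factor, lay between 115 and 129 CPM, and B2M, the class I light chain, between 13200 and 15900 CPM. The highest library was 2.21 times the lowest for HLA-E, a class I heavy chain, and 2.13 times for CTSS, an endosomal protease. Among the members this ratio was lower for HLA-DRA (1.55), HLA-DPB1 (1.71) and HLA-DMA (2.11). It was higher for CIITA (2.79), HLA-DMB (3.28), HLA-DRB1 (3.67), CD74 (3.95) and HLA-DPA1 (15), and HLA-DQA1 had a library at 0. Whether the members' spread comes from 1 source was not tested. Without replicate 2, the same 5 members were called.

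**Figure D3:**
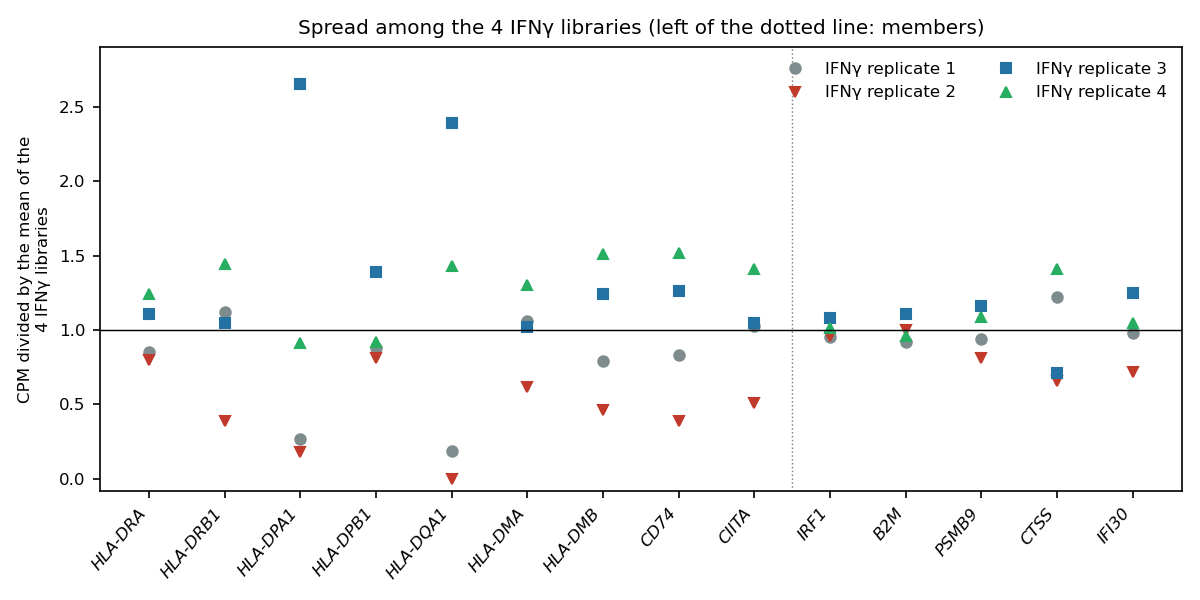
CPM in each of the 4 IFNγ libraries divided by their mean, for 9 members (left of the dotted line) and 5 other genes of the interferon response. Replicate 2 (red triangles) is the lowest for all 9 members, while IRF1 and B2M lie close to 1 in every library and CTSS spreads more widely.

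IFNα, a type I interferon, was the nearest comparison to IFNγ. HLA-DRA had 0, 0, 0 and 4 counts after IFNα, CD74 had 4, 0, 6 and 0, and HLA-DMA had 0, 10, 3 and 1. In CPM the highest of these were 6.54 for HLA-DMA in IFNα replicate 2 and 4.74 for CD74 in IFNα replicate 3. HLA-DMB, HLA-DRB1 and HLA-DPA1 had 0 in all 4 libraries. HLA-DPB1 had 15, 8, 5 and 12 counts (8.21, 5.23, 3.95 and 7.43 CPM), which overlapped the unstimulated libraries. CIITA had 7, 5, 3 and 5 counts, likewise in the unstimulated range. No member was called after IFNα by edgeR, by DESeq2 or, with the filter, at an unadjusted p under 0.05 (0 of 5 tested), where 3.98% of the tested genes were called. The log2 fold changes of HLA-DPB1 (0.26, SE 0.49, adjusted p = 0.839) and CD74 (1.60, SE 1.29, adjusted p = 0.544) did not pass the test. The same held for HLA-DMA (2.16, SE 1.20, edgeR adjusted p = 0.305) and HLA-DRA (3.09, SE 1.64, adjusted p = 0.292). With no filter on low counts, CD74, HLA-DMA and HLA-DRA had an unadjusted p under 0.05 (0.0474, 0.0204 and 0.0207, with edgeR adjusted p = 0.429, 0.267 and 0.269).

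The direct contrast of IFNγ against IFNα called all 5 tested members higher with IFNγ (1.06% of the tested genes were called higher). HLA-DRA, HLA-DMA, HLA-DMB and CD74 reached the filter through their IFNγ libraries, so this count too is a description. CD74 was higher by a ratio of 257 (95% interval 140 to 537; log2 difference 7.90, SE 0.73, edgeR adjusted p = 2.56e-10). HLA-DRA was higher by a ratio of 312 (122 to 1150; log2 difference 8.10, adjusted p = 1.21e-07). For HLA-DMA the ratio was 40.5 (23.9 to 74.6; log2 difference 5.22, adjusted p = 5.56e-05) and HLA-DMB was at least 64.1-fold higher (adjusted p = 0.000129). These log2 differences moved with single IFNα libraries. They reached 8.87 for CD74 without IFNα replicate 3, 11.21 for HLA-DRA without IFNα replicate 4, which held all 4 of its IFNα counts, and 6.53 for HLA-DMA without IFNα replicate 2. All 3 calls were kept there. HLA-DPB1 showed the smallest difference, a ratio of 3.93 (2.74 to 5.75; log2 difference 2.00, SE 0.46, adjusted p = 0.00261). HLA-DRB1 and HLA-DPA1 were at least 31.3-fold and 28.0-fold higher and were called only with no filter (edgeR adjusted p = 0.000512 and 0.000782), where 0.489% of symbols were called higher. Without IFNγ replicate 3 the fitted log2 difference of HLA-DPA1 was lowest, at 6.26. The contrast was not significant for CIITA (ratio 2.07, 95% interval 1.16 to 3.80; log2 difference 1.05, SE 0.89, adjusted p = 0.719 with no filter) or HLA-DQA1 (adjusted p = 0.409 with no filter). DESeq2 again called 3 of the 5.

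MHC class I genes rose after both interferons. Of 12 class I genes (heavy chains, B2M, the peptide transporter, its partner TAPBP, the immunoproteasome and the co-activator NLRC5), 12 rose after IFNγ and 12 after IFNα. Their median log2 fold changes were 3.75 and 3.33, against medians of -0.011 and -0.006 over all tested genes. In the direct contrast 0 of the 12 were called (edgeR and DESeq2). HLA-B (log2 difference -0.60, edgeR adjusted p = 0.0194) and PSMB8 (1.06, adjusted p = 0.0325) differed in opposite directions, short of the fold threshold. TAP1 (1.29, adjusted p = 0.0844) had an unadjusted p under 0.05 only. B2M rose by 2.49 (SE 0.13, edgeR adjusted p = 3.38e-19) after IFNγ and by 2.51 (SE 0.13, adjusted p = 2.03e-19) after IFNα. NLRC5, the class I counterpart of CIITA, rose by 4.22 (SE 0.54, adjusted p = 9.84e-08) and 3.40 (SE 0.54, adjusted p = 5.9e-06), and the log2 difference between the interferons was 0.83 (SE 0.44, adjusted p = 0.29). Class I calls were not limited to the interferons. NLRC5 was also called after IL-17A (2.11, edgeR adjusted p = 0.0296) and TNF (1.69, adjusted p = 0.037), and TAP1 after TNF (2.15, adjusted p = 0.0159).

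**Figure D4:**
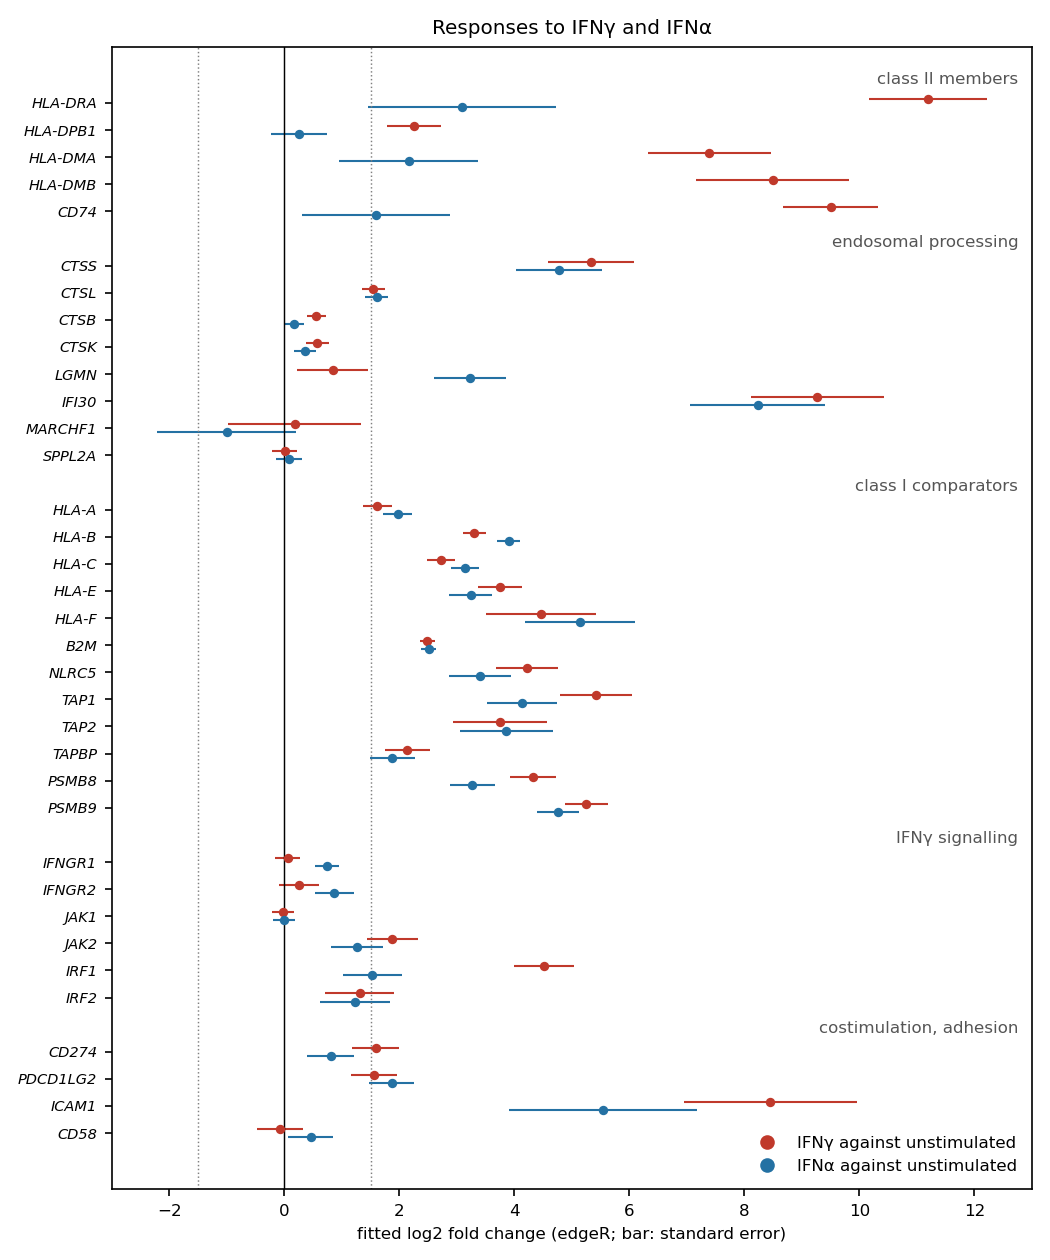
Fitted log2 fold change (edgeR, horizontal bars are standard errors) after IFNγ (red) and IFNα (blue) for tested class II members and genes of 4 related lists, with dotted lines at an absolute change of 1.5. HLA-DRA, HLA-DMA, HLA-DMB and CD74 lie at 7.39 or more after IFNγ and at 3.09 or less after IFNα, whereas the class I genes lie to the right of 1.5 after both. HLA-DMB had no count in either group after IFNα and has no blue point.

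Several genes that process antigen in the endosome also rose after both interferons. Of 12 listed genes, 8 were tested, and 3 rose after IFNγ and 4 after IFNα. CTSS, the protease that removes the invariant chain, rose from 1.92 ± 1.13 CPM to 79.9 ± 29.6 after IFNγ and 54.4 ± 9.56 after IFNα (SD, n = 4; log2 fold changes 5.33 and 4.78, edgeR adjusted p = 9.17e-07 and 5.27e-06). IFI30, a reductase of the endosome, was at 0 counts in unstimulated cells and had 52.6 ± 11.4 CPM after IFNγ and 25.4 ± 6.58 after IFNα. CTSL rose with both interferons (1.55 and 1.61), and its IFNγ call, near the threshold, was lost under 6 alternatives. These 2 genes were also called after other cytokines. CTSS was called after TNF (4.00, edgeR adjusted p = 0.000131) and IL-1β (3.19, adjusted p = 0.00319). CTSL was called after OSM (2.01, adjusted p = 1.61e-09), by more than after either interferon. LGMN, an asparagine-specific protease, rose only in the IFNα comparison (3.23, adjusted p = 0.000159; after IFNγ 0.84, adjusted p = 0.439), and the interferons differed (IFNγ against IFNα log2 difference -2.39, adjusted p = 0.00556).

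None of the 9 tested genes of the RFX, NF-Y, CREB and acetyltransferase group, on which CIITA acts, was called after IFNγ by edgeR or DESeq2 (1 at an unadjusted p under 0.05). That gene, NFYB, had a log2 fold change of -0.75 (adjusted p = 0.0342), short of the fold threshold. RFX5 was at 4.49 ± 2.06 CPM in unstimulated and 6.65 ± 3.38 CPM in IFNγ libraries (SD, n = 4), and RFXANK at 12.8 ± 6.11 CPM and 24.0 ± 13.6 CPM. Among genes of IFNγ signalling, IRF1 and the kinase gene JAK2 rose after IFNγ (log2 fold changes 4.52 and 1.88, edgeR adjusted p = 7.7e-09 and 0.00359). IRF1 was also called after IFNα (1.53, adjusted p = 0.0458), a call lost under 11 alternatives. The receptor chains IFNGR1 (97.8 ± 19.9 CPM unstimulated) and IFNGR2 (16.7 ± 4.94) were present and had log2 fold changes of 0.06 and 0.26 after IFNγ. IRF1, a factor at the IFNγ-responsive CIITA promoter, reached 120 ± 6.96 CPM after IFNγ and 15.0 ± 9.32 after IFNα from 5.01 ± 2.99, and was higher with IFNγ by 2.99 on the log2 scale (SE 0.47, edgeR adjusted p = 1.23e-05).

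CD80 and CD86, costimulatory ligands of T cells, had 0 counts in the unstimulated, IFNγ and IFNα libraries. CD40, a costimulatory receptor of antigen-presenting cells, had 0, 4 and 2 counts over these groups. Of the 4 tested genes of costimulation and adhesion, 3 rose after IFNγ and 2 after IFNα (PDCD1LG2 and ICAM1). The inhibitory ligand CD274 rose from 30.6 ± 10.6 to 92.1 ± 9.35 CPM (SD, n = 4; log2 fold change 1.59, edgeR adjusted p = 0.00722), a call lost under 2 alternatives, both without unstimulated replicate 1. PDCD1LG2, another ligand of the same receptor, rose by 1.56 (adjusted p = 0.00594), a call that was lost under 10 alternatives, and by 1.87 after IFNα (edgeR adjusted p = 0.000596). ICAM1, an adhesion ligand, was at 0 in unstimulated cells and had 29.6 ± 20.7 CPM after IFNγ and 3.89 ± 1.57 CPM after IFNα, where the call was lost on leaving out any of 3 unstimulated replicates (1, 2 and 4). It was also called after TNF, at 26.0 ± 6.01 CPM, and after IL-1β, at 4.64 ± 3.15 CPM.

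The other 8 cytokines left most members at or near 0, and edgeR called no member after any of them, nor did DESeq2. At an unadjusted p under 0.05 there were 3 of 5 tested members after TNF (CD74, HLA-DPB1 and HLA-DRA), 1 after IL-17A and 1 after IL-22 (HLA-DPB1 in both), and 0 after the other 5. The share of all genes called was 4.19% after TNF, 2.78% after IL-1β, 0.452% after IL-17A, 1.47% after IL-13, 1.7% after TGF-β1, 1.3% after OSM, 0.0105% after IL-6 and 0% after IL-22. HLA-DPB1 was the one member with enough counts to be followed in every group. After IL-22 it had 16.6, 12.7, 14.0 and 14.0 CPM, above all unstimulated libraries, as were 2.22% of tested genes, and its log2 fold change was 1.44 (SE 0.48, edgeR adjusted p = 0.209). After TNF it had 13.3, 12.0, 12.7 and 9.58 CPM, also above all unstimulated libraries, as were 6.73% of tested genes (log2 fold change 1.17, adjusted p = 0.109). After IL-17A the levels were 3.23, 14.7, 12.7 and 12.6 CPM, with replicate 1 inside the unstimulated range (1.01, adjusted p = 0.365). The group means of HLA-DPB1 ran from 5.24 CPM unstimulated, through 6.21 after IFNα, 6.26 after IL-1β, 6.65 after TGF-β1, 8.12 after IL-13, 8.38 after IL-6, 9.48 after OSM, 10.8 after IL-17A, 11.9 after TNF and 14.3 after IL-22, to 25.4 after IFNγ. The lowest IFNγ library (20.6 CPM) stood above the highest other library (16.6 CPM, IL-22).

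The counts of CD74 and HLA-DRA after TNF came from a single library. TNF replicate 4 had 20 counts of CD74 and 6 of HLA-DRA, while the other 3 TNF libraries had 0 of each. The same library had 18 counts of CXCL9, an IFNγ-induced chemokine, and 26 of GBP5, a guanylate-binding protein, both at 0 in the other 3. It had 0 counts of HLA-DRB1, HLA-DPA1 and HLA-DMB. With no filter, edgeR called CD74 after TNF (log2 fold change 2.54, SE 0.71, adjusted p = 0.0121), and without TNF replicate 4 the fold change turned to -2.73 (adjusted p = 0.543). HLA-DQA1 had 2, 1, 1 and 2 counts in TNF libraries against 0 in each unstimulated library (exact permutation p = 0.0286, adjusted p = 0.219), which is at the level of single reads.

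The genes outside the set whose response pattern was closest to CD74 and HLA-DRA were IFNγ-responsive genes. As CD74 and HLA-DRA changed mainly after IFNγ, the measure used could return little else. Likeness was the root mean square difference in log2 fold change (prior count 2) over the 10 cytokine comparisons, among 9508 tested genes, and the comparisons share their unstimulated libraries. For HLA-DRA the closest were CXCL9 (0.33), APOL4 (0.71) and GBP4 (0.87), and for CD74 they were CXCL9 (0.44), GBP5 (0.85) and APOL4 (0.88). CXCL9 was at 171 ± 13.5 CPM after IFNγ (SD, n = 4), 1.70 ± 0.623 after IFNα and 0.122 ± 0.243 unstimulated. GBP5 was at 445 ± 198 CPM after IFNγ and 11.5 ± 4.64 after IFNα. After IFNα the log2 fold changes (prior count 2) were 3.01 for GBP5 and 2.08 for GBP4. Those of CD74 and HLA-DRA were 0.48 and 0.37. CIITA did not pass the filter and was given no likeness value.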

How the data were processed

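Per the labels and the study's methods, total RNA was made into libraries with the NEBNext Ultra II RNA kit and sequenced on a NovaSeq. The authors ran kallisto (version 0.48.0) after read checks by FastQC (0.11.9) and MultiQC (1.14), and deposited estimated counts per gene symbol, with no scaling for depth. The submitters' processing notes name hg38. The release of the transcriptome, how transcripts became symbols and the use of strand are not given in the sources used here. Of the deposited values 5.73% were not whole, and they were rounded. Each column was assigned to a sample by its labels.

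edgeR (version 4.0.16, R version 4.3.3) was fitted to all 44 libraries with 1 coefficient per group (filterByExpr, trimmed mean of M values, glmQLFit and glmQLFTest; biological coefficient of variation 0.331). Calls needed an absolute log2 fold change above 1.5 and p under 0.05 after Benjamini-Hochberg adjustment within a comparison. IFNγ was also compared with IFNα directly. Members that failed the filter were tested by exact 2-sided permutation of library means. A group at 0 was given a floor of 3 counts over the group. The code was tested on simulated data for IFNγ against unstimulated, where edgeR called 182 of 200 genes changed 4-fold (91%) among 8515 genes. The changed genes were drawn from those with higher unstimulated levels than any member. That share therefore does not describe the power for the members.

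The genes named were the members, the listed genes of related pathways that passed both thresholds or are regulators or receptors, and the closest genes by likeness. A listed gene and a searched motif are not reported here. Members and lists were chosen with earlier results of these data known. Positions and lengths are from GENCODE release 44 (GRCh38). Alternatives were DESeq2 (version 1.42.0) size factors and Wald test, other filters and thresholds, summed paralogs, only the 8 libraries compared, a replicate block, and each library left out. None of 66 pairs of replicates agreed within sampling noise (chi-square per degree of freedom 3.17 or more). Deviations of same-numbered libraries of different groups had a median correlation of 0.0189 (-0.187 to 0.281), with 20 of 220 over 0.1. The median for different numbers was -0.0069. Whether replicate numbers mark a batch was not tested.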

Additional observations from a re-analysis of the deposited data

Results flagged for a closer look

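In groups of 4 libraries, 6 of 39 tested groups of a member held a library far from the other 3 (Dixon's test at 95%). In 5 of the 6 the other 3 libraries were at 0, where the ratio tested is 1 whatever the count, so the usual rate of 1 in 20 by chance does not apply to them. HLA-DRA stood at 2.48 CPM in IFNα replicate 4 and at 3.19 CPM in TNF replicate 4, with 0 in the other libraries of those groups. CD74 stood at 10.6 CPM in TNF replicate 4. HLA-DMA stood at 2.53 CPM in IL-1β replicate 3 and 2.55 CPM in IL-22 replicate 4. CIITA, the exception, stood at 4.65 CPM in IL-17A replicate 2 with 0.571 CPM in the nearest other library. Each of these rests on 20 counts or fewer.

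The response to IFNγ and the response to IFNα differed by the direct contrast for 5 members. The log2 difference (edgeR, IFNγ against IFNα) was 7.90 for CD74, 5.22 for HLA-DMA, 8.49 for HLA-DMB, 2.00 for HLA-DPB1 and 8.10 for HLA-DRA. In this contrast 1.06% of the tested genes were called higher. For each of the 5 the IFNγ libraries lay above all 40 other libraries, as for 0.255% of symbols with a count. HLA-DRA, HLA-DMA, HLA-DMB and CD74 reached the filter through their IFNγ libraries, so these counts are a description.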

How the results depend on the processing

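After IFNγ, 5 members were called, and the same 5 were called with DESeq2's size factors, at least 10 counts in at least 4 libraries, the replicate block (5), summed paralogs, only the 8 libraries compared, and each library left out. The replicate block changed no call of a member. DESeq2's Wald test called 3 in the contrasts of IFNγ with unstimulated and with IFNα, without HLA-DRA (adjusted p = 0.347, SE 6.84) and HLA-DMB (0.478, SE 6.39), whose standard errors were 1.02 and 1.33 in edgeR. With no filter 8 were called after IFNγ, between 7 and 8 with a library also left out (chosen after seeing the data). In the contrast with IFNα, no filter gave 7, and 6 without IFNγ replicate 3, where HLA-DPB1 was lost. After IFNα, 1 member (HLA-DMA) was called with no filter and without unstimulated replicate 1. After TNF, 1 (CD74) was called with no filter, and between 0 and 1 with a library left out, which was HLA-DMA without unstimulated replicate 1. The log2 fold change of CD74 after TNF ran from -2.72 to 3.52 with single libraries left out, and from -2.73 to 3.47 with no filter as well, the negative values being those without TNF replicate 4. The other causes were not tested.

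Depth limits these results: 3 counts in a single library were 1.38 CPM or more, so a low level of HLA-DQB1 in single libraries could be missed. Its counts, as those of other polymorphic chains, also depend on the alleles in the reference transcriptome. Changes of CIITA and HLA-DQA1 after IFNγ rested on few counts and could not be told from the spread between libraries (exact permutation p = 0.143 for each). The labels do not tie replicates to separate cultures.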

Other observations

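CXCL9, the gene closest to HLA-DRA in its response, also had 11 counts (9.92 CPM) in TGF-β1 replicate 3 and 0 in the other 3 TGF-β1 libraries. That library had 0 counts of HLA-DRA and CD74.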
